A study of Zea mays with 8 samples.

Results

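The loci described here are 2452 stretches of the maize genome that carry an assembled locus number (XLOC) but no gene identifier in the deposited expression table, and are called unannotated loci below. They were chosen by level: an unannotated locus was kept if its mean was at least 1 FPKM (fragments per kilobase of transcript, scaled to the mapped fragments of the library) in at least 1 of the 4 groups, and if no other locus had the same chromosome, start and end. Of 4137 unannotated loci, 2644 reached 1 FPKM, and 192 of these were left out for a shared span. The 2452 loci kept are 59.3% of the unannotated loci and 9.92% of the 24706 loci tested, out of 43110 in the table. RNA came from leaf 6 of the maize inbred line B73, a standard laboratory line, grown in hydroponic culture at low nitrogen (LN, 0.04 mM) or high nitrogen (HN, 4 mM). The groups were the LN elongation zone, the HN elongation zone, the LN division zone and the HN division zone, with 2 libraries each and 8 in all. The division zone lies at the base of a growing grass leaf, and the elongation zone lies above it. The study asked how nitrogen shortage changes leaf growth in these zones, and the comparisons are LN against HN in each zone and elongation against division zone at each supply.

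Loci without a gene identifier arise when sequenced fragments stack up where a reference annotation lists no gene. Such a locus can be a long noncoding RNA, an exon or untranslated end that a gene model lacks, a transcript from a transposable element, of which the maize genome holds very many, or a piece of any of these. Nitrogen is a building block of chlorophyll, photosynthetic enzymes and nucleic acids, and in a grass leaf cells divide at the base and lengthen as they are pushed away from it. The table gives neither strand nor exon structure, so exons and introns of an unannotated locus, and its coding capacity, were not assessed.

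The zone labels were checked against marker genes taken from an earlier report on these data. The 6 division markers, among them the replication helicase genes MCM6 and MCM7, summed to between 22.5 and 95.7 FPKM in elongation libraries and between 308 and 443 FPKM in division libraries. The 6 elongation markers, among them the aquaporin gene PIP2-4 and the wall-loosening gene xth1, summed to between 602 and 1001 FPKM in elongation libraries and between 15.8 and 29.5 FPKM in division libraries. The 5 genes of mature or greening blade summed to 395 and 254 FPKM in LN elongation, 1359 and 1826 FPKM in HN elongation, 25.6 and 34.3 FPKM in LN division and 87.4 and 87.3 FPKM in HN division. The senescence marker see2b had 130 and 103 FPKM in LN elongation, 23.9 FPKM in both HN elongation libraries, 15.9 and 16.0 FPKM in LN division and 10.1 and 9.79 FPKM in HN division. The blade genes and see2b move with both supply and zone, and their part in the changes reported below was not tested. In tissue samples fewer cells of a type and less RNA per cell cannot be told apart. Column totals ran between 652957 and 1113550 FPKM, and the number of reads behind them is unknown here.

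The unannotated loci were short and lowly expressed compared with loci that carry a gene identifier. Their median span was 805 bp (quartiles 388 and 2154 bp, range 201 to 221540 bp), against 4229 bp for the 22062 tested identifier loci (quartiles 2367 and 7336 bp). Their median level over the 4 group means was 2.82 FPKM, against 8.68 FPKM for identifier loci. In single libraries they took up between 7.61% and 12% of all FPKM. All 10 chromosomes held them, with between 170 and 330 per chromosome, which is 8.65% to 11.4% of the loci tested there. In all 4 groups 1230 unannotated loci (50.2%) reached 1 FPKM, against 80.1% of identifier loci, and 577 (23.5%) reached it in a single group, against 5.73%. At least 1 library listed 822 of them (33.5%) at 0, against 4.3% of identifier loci. The group with the highest mean was LN elongation for 917 unannotated loci (37.4%), HN elongation for 491 (20%), LN division for 593 (24.2%) and HN division for 451 (18.4%). Among identifier loci these shares were 30.6%, 24.5%, 24.8% and 20%. These levels chose the loci and are given as a description.

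A locus at the selection threshold is barely above 0. The 3 unannotated loci just inside were XLOC_000156, with 0.626 and 1.38 FPKM in LN elongation, XLOC_000869, with 1.42 and 0.579 FPKM in LN division, and XLOC_035934, with 2.0 and 0 FPKM, 1 and 0 steps, in HN elongation. Just outside were XLOC_014607, with 2.0 and 0 FPKM in LN elongation, XLOC_014764, with 0.785 and 1.21 FPKM in LN division, and XLOC_032438, with 0.442 and 1.55 FPKM in HN division. In XLOC_035934 and XLOC_014607 a single library of the pair carries the value, and the loci inside and outside overlap in level.

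For short spans a single step of the deposited values was large. Among loci of 201 to 400 bp, values of loci with equal span in 1 library were whole multiples of a common smallest value, here called a step: between 97.6% and 100% of the 89 to 135 values checked per library lay within 0.05 of a whole number, for values of up to 10 steps. The step fell steeply with span. It was worth between 20.7 and 42.9 FPKM at 210 bp, between 6.32 and 11.0 FPKM at 240 bp, between 1.24 and 2.01 FPKM at 297 bp, and between 0.346 and 0.552 FPKM at 400 bp, depending on the library. Of the 2452 unannotated loci, 649 (26.5%) lie in this range of spans, 208 lie between 400 and 500 bp and 1595 (65.0%) span 500 bp or more. Among the 649 short loci, the 2 libraries of the highest group held 3 steps or fewer together in 153 (23.6%), and 10 or fewer in 403 (62.1%), with a median of 6. A high FPKM at the shortest spans can thus rest on very few steps, so step numbers are given below for named loci of this range. Both nitrogen counts are also given for spans of 500 bp or more, a restriction added after the values were seen.

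**Figure D1:**
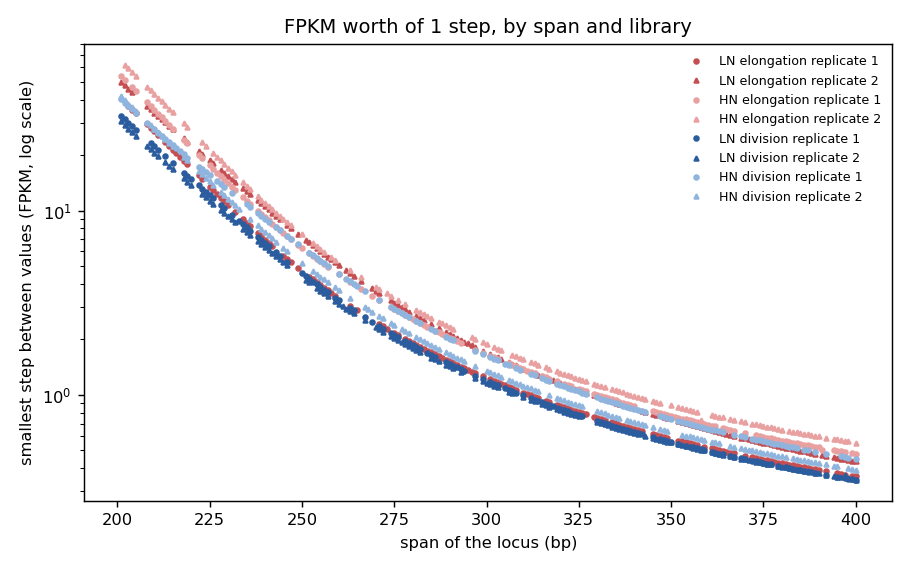
Smallest step between FPKM values (vertical axis, log scale) against the span of the locus in bp (horizontal axis), 1 point per span and library, coloured by group with circles for replicate 1 and triangles for replicate 2. At 210 bp a step is worth 20.7 to 42.9 FPKM, and at 400 bp 0.346 to 0.552 FPKM.

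The 8 unannotated loci with the highest levels include 5 of 335 bp or less. XLOC_021832 (B73 RefGen_v3, 4:18245736-18245962, 227 bp) led with 2290 and 4131 FPKM in LN elongation, 5937 and 10276 FPKM in HN elongation, 16930 and 16821 FPKM in LN division, and 25256 and 18162 FPKM in HN division. Its 4 division libraries lay above its 4 elongation libraries, and its zone change at LN was −2.46 ± 0.73 on the log2(FPKM + 1) scale (SE, adjusted p = 0.0284). XLOC_038768 (8:114974984-114975390, 407 bp) had 1738 and 2045 FPKM in LN elongation, 4190 and 3367 FPKM in HN elongation, 2126 and 2483 FPKM in LN division, and 5722 and 6446 FPKM in HN division. Both of its LN groups lay below the matching HN groups, but neither nitrogen change passed the threshold (adjusted p = 0.127 in elongation and 0.105 in division). XLOC_040904 (9:124034705-124036427, 1723 bp) was the longest of the 8, with 419 and 459 FPKM in LN elongation against 1065 and 1587 FPKM in HN elongation. It fell by 1.57 ± 0.32 on the log2 scale in that comparison (adjusted p = 0.019). XLOC_035848 (7:1971070-1971404, 335 bp) averaged 2932 FPKM over the groups and XLOC_031163 (6:74065503-74065942, 440 bp) 1124 FPKM, and neither passed the threshold in any comparison. XLOC_009411 (10:19036793-19036995, 203 bp), XLOC_014693 (2:171522666-171522908, 243 bp) and XLOC_014663 (2:130333828-130334028, 201 bp) averaged 2356, 1545 and 1311 FPKM. In limma XLOC_009411 was lower in the elongation than in the division zone at LN (−1.51 ± 0.44, adjusted p = 0.027). XLOC_014663 was lower in LN than in HN elongation (−1.58 ± 0.38, adjusted p = 0.0291). It was higher in the elongation zone at HN and at LN (limma, adjusted p = 0.00173 and 0.00521). XLOC_014693 passed in no comparison. XLOC_014663 held 9 to 60 steps per library, and the other 4 loci of 335 bp or less held 25 or more.

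The longest spans were of ordinary level. XLOC_018053 (3:150432402-150653941, 221540 bp) had 22.8 and 33.0 FPKM in LN elongation and 24.9 and 23.6 FPKM in HN elongation, against 1.09 and 1.36 FPKM in LN division and 3.89 and 3.46 FPKM in HN division. It was higher in the elongation zone at both supplies, by 3.68 ± 0.20 at LN and 2.43 ± 0.20 at HN on the log2 scale (adjusted p = 3.51e-05 and 0.000231). In limma it was also lower in LN than in HN division (−1.07 ± 0.20, adjusted p = 0.0339). XLOC_008344 (10:51689240-51766659, 77420 bp) had between 1.90 and 6.18 FPKM and XLOC_007275 (10:99909012-99962881, 53870 bp) between 24.4 and 30.3 FPKM in the 8 libraries, and neither passed the threshold in any comparison. XLOC_007275 is a locus whose 8 values differ little between supplies and zones.

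Few unannotated loci were called for nitrogen supply in the division zone. In the limma fit of log2(FPKM + 1) to all tested loci, with Benjamini-Hochberg adjusted p under 0.05, 37 were higher and 44 lower in LN than in HN division zone, which is 3.30% of the 2452. Over all 24706 tested loci 5.09% were called, 1.81% higher and 3.27% lower, and over identifier loci 5.31%, so the share among the unannotated loci was below the background, and the difference was not tested. Their median change was 0.00. In limma 391 of the unannotated loci had an unadjusted p under 0.05. In data simulated for this comparison 21.1% of changes of 1 on the log2 scale were recovered, so uncalled loci may have changed. A locus that passed the level filter only through its highest group had to differ between groups, which holds for identifier loci too; with a filter on the mean over all libraries 67 were called. Of spans of 500 bp or more, 25 were higher and 38 lower. Scaling all libraries to an equal FPKM total turned the balance to 74 higher and 46 lower. This scaling moved the median change of all tested loci to 0.14, against −0.01 as deposited. Over all tested loci rises made up 35.6% of the calls as deposited and 62.1% with equal totals, so the balance turned there too. Every left-out library moved the count: 27 to 33 were called without 1 of the LN division libraries, 10 to 11 without 1 of the HN division libraries, 24 without 1 of the LN elongation libraries, and 205 to 206 without 1 of the HN elongation libraries.

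Rises in the LN division zone are given first for loci of 500 bp or more and then for short loci. The list of spans of 500 bp or more was added after the values were seen. XLOC_030349 (6:153404916-153406134, 1219 bp) had 6.92 and 6.57 FPKM in LN division and is listed at 0 in both HN division libraries. Its 2 LN libraries stood clear of 0 (adjusted p = 0.000899), and it kept the call in all 8 fits that left out 1 library. That is no added support, since XLOC_030349 is listed at 0 in all 4 HN libraries and these zeros add no spread to the fit. XLOC_039981 (9:13164506-13165312, 807 bp) had 15.0 and 18.2 FPKM in LN division against 4.89 and 4.92 FPKM in HN division, a 3.39-fold difference of means (log2 change 1.57 ± 0.18, adjusted p = 0.0108). XLOC_030903 (6:25335803-25336535, 733 bp) had 15.8 and 22.4 FPKM in LN division against 7.38 and 6.06 FPKM in HN division (1.37 ± 0.20, adjusted p = 0.0203). XLOC_024248 (5:5323973-5326925, 2953 bp) had 36.6 and 43.3 FPKM in LN division against 17.0 and 17.9 FPKM in HN division (1.15 ± 0.19, adjusted p = 0.0263). In these 3 loci both LN libraries lay above both HN libraries. XLOC_021796 (4:14865985-14867591, 1607 bp) spread more, with 8.2 and 3.76 FPKM in LN division against 1.29 and 1.65 FPKM in HN division (adjusted p = 0.0492). The calls of XLOC_030903, XLOC_024248 and XLOC_021796 held in 2 of the 8 fits without 1 library each, and that of XLOC_039981 in 4.

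The largest fitted rises in the LN division zone belong to short loci. XLOC_019351 (3:179930185-179930399, 215 bp) had 163 and 84.2 FPKM in LN division, about 9 and 5 steps, and is listed at 0 in both HN division libraries (adjusted p = 0.0417). In the elongation zone it had 21.4 and 0 FPKM at LN and 27.9 and 137 FPKM at HN, so replicates lay far apart. In limma its zone change was above 0 at HN and below 0 at LN (adjusted p = 0.0136 and 0.0296). XLOC_006287 (1:4618123-4618342, 220 bp) had 29.7 and 27.6 FPKM in LN division, 2 steps in each library, and is listed at 0 in the other 6 libraries (adjusted p = 0.000171). XLOC_032563 (6:153139296-153139515, 220 bp) had 14.8 and 27.6 FPKM, which are 1 and 2 steps, and XLOC_019184 (3:27983017-27983260, 244 bp) had 5.70 and 16.3 FPKM, which are 1 and 3 steps. Both are listed at 0 in the other 6 libraries (adjusted p = 0.00214 and 0.0118). XLOC_006287, XLOC_032563 and XLOC_019184 passed the level filter through LN division alone. Their zeros in the other groups add no spread to the fit. The adjusted p values of these loci therefore do not measure the uncertainty of so few steps. XLOC_014560 (2:29346664-29346897, 234 bp) had 8.44 and 15.9 FPKM in LN division, 1 and 2 steps, against 0 and 0 in HN division (adjusted p = 0.00702), while its elongation libraries held 1 or 2 steps each. Of the 12 short loci called in this comparison, 7 held 10 steps or fewer in their highest group.

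Among the loci that fell in the LN division zone, XLOC_002072 (1:219455814-219456640, 827 bp) had the largest fitted change. It is listed at 0 in both LN division libraries and had 63.7 and 44.5 FPKM in HN division (adjusted p = 0.0151). XLOC_010571 (2:91521645-91522225, 581 bp) had 124 and 123 FPKM in LN division against 589 and 539 FPKM in HN division, 4.58-fold lower (log2 change −2.19 ± 0.35, adjusted p = 0.0248). XLOC_005074 (1:208055691-208057422, 1732 bp) had 3.77 and 5.31 FPKM in LN division against 16.7 and 16.8 FPKM in HN division, 3.69-fold lower (−1.69 ± 0.25, adjusted p = 0.0206). In these 3 loci the groups did not overlap. XLOC_032986 (7:36634966-36660151, 25186 bp) had 4.65 and 3.23 FPKM in LN division against 16.5 and 23.3 FPKM in HN division (−2.08 ± 0.38, adjusted p = 0.0332). XLOC_042202 (9:100481627-100482795, 1169 bp) is listed at 0 in both LN division libraries, against 3.09 and 10.1 FPKM in HN division (adjusted p = 0.0227). XLOC_019313 (3:150074932-150075374, 443 bp) had 4.14 and 7.33 FPKM in LN division against 24.3 and 26.9 FPKM in HN division (−2.02 ± 0.37, adjusted p = 0.033), and XLOC_032578 (6:159968063-159969320, 1258 bp) had 3.30 and 3.93 FPKM against 15.0 and 10.8 FPKM (−1.58 ± 0.23, adjusted p = 0.0182). The last 4 loci were also apart between the groups. Each of these 7 calls was lost in 4 to 6 of the 8 fits without 1 library.

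In the elongation zone 280 unannotated loci were higher and 157 lower in LN than in HN, 17.8% of the 2452. Over all tested loci 22.4% were called, 9.86% higher and 12.5% lower. As deposited, 64.1% of the calls were rises among the unannotated loci and 42.1% among identifier loci. The difference between the classes was not tested. Their median change was 0.21, against 0.05 among identifier loci. For spans of 500 bp or more, 210 were higher and 122 lower. The split depended on scaling: rises made up 85.4% of the calls with equal FPKM totals, which moved the median change of all tested loci to 0.43, against 0.07 as deposited, and 52.1% with median ratio scaling. Over all tested loci rises made up 44.1% of the calls as deposited, 77.4% with equal totals and 30.1% with median ratio scaling, so with equal totals rises prevailed among all tested loci too. A fit of the 2 elongation groups alone called none of the unannotated loci, and none of all tested loci either. In that limma fit 660 unannotated loci had an unadjusted p under 0.05, and the lowest adjusted p was 0.0887. Without 1 of the LN elongation libraries 79 (replicate 1) or 126 (replicate 2) were called, without HN elongation replicate 1 860 and without HN elongation replicate 2 299. Without 1 of the LN division libraries 280 were called and without 1 of the HN division libraries 230. The HN elongation replicates lay furthest apart, where the median SD over the unannotated loci was 0.16 on the log2 scale in LN elongation and 0.31 in HN elongation.

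**Figure D2:**
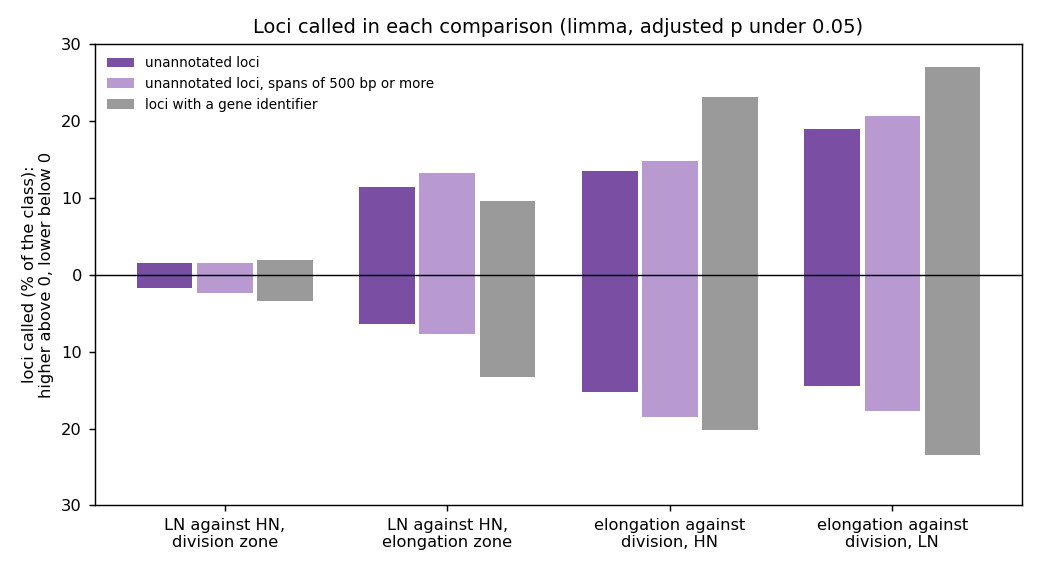
Share of each class of loci called by limma at adjusted p under 0.05 (vertical axis, percent of the class, rises above 0 and falls below 0) in 4 comparisons, for the 2452 unannotated loci, the 1595 of them that span 500 bp or more, and the 22062 identifier loci. In LN against HN elongation the unannotated loci have more rises than falls (280 and 157) and the identifier loci more falls than rises (2128 and 2927).

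Several unannotated loci were read in LN elongation and listed at 0 in HN elongation. The HN elongation libraries listed 395 and 456 unannotated loci at 0, and the LN elongation libraries 316 and 333. At 400 bp a step was worth 0.479 and 0.552 FPKM in HN elongation, against 0.361 and 0.436 FPKM in LN elongation. A 0 in HN elongation may thus be a missed locus, which was not tested. XLOC_030349 had 21.7 and 21.9 FPKM in LN elongation and is listed at 0 in both HN elongation libraries (adjusted p = 0.000254). XLOC_033172 (7:81049034-81049602, 569 bp) had 21.4 and 27.8 FPKM in LN elongation and is listed at 0 in the other 6 libraries (adjusted p = 0.000507). XLOC_033172 passed the level filter through LN elongation alone, and its zeros in every other group add no spread to the fit. Both calls held in all 8 fits without 1 library, which for XLOC_033172 is therefore no added support. The same holds for XLOC_030349, whose zeros in all 4 HN libraries add no spread either. XLOC_018444 (3:186093211-186095364, 2154 bp) spread widely, with 10.3 and 59.5 FPKM in LN elongation against 0 and 0 in HN elongation (adjusted p = 0.0389), and its call held in 2 of the 8. XLOC_023969 (4:145101143-145101381, 239 bp) had 29.0 and 10.9 FPKM, 4 and 1 steps, and XLOC_006542 (1:280925201-280925446, 246 bp) had 27.4 and 8.39 FPKM, 5 and 1 steps, both against 0 and 0 in HN elongation (adjusted p = 0.02 and 0.0209). XLOC_019208 (3:48709848-48710065, 218 bp) had 74.7 and 73.9 FPKM, 4 and 3 steps, against 0 and 0 (adjusted p = 0.0336). In the division zone XLOC_019208 had 48.2 and 0 FPKM at LN and 60.4 and 137 FPKM at HN. The LN elongation values of these 3 short loci come from 5 to 7 steps in the 2 libraries together. Longer loci were also read at HN. XLOC_010986 (2:165661430-165662216, 787 bp) had 46.3 and 47.9 FPKM in LN elongation against 11.3 and 2.70 FPKM in HN elongation, 6.75-fold higher (log2 change 2.84 ± 0.53, adjusted p = 0.0149). XLOC_003019 (1:291257932-291260304, 2373 bp) had 7.30 and 11.4 FPKM against 0 and 2.21 FPKM (adjusted p = 0.0304). The calls held in 6 of the 8 fits without 1 library for XLOC_010986 and in 1 for XLOC_003019.

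Other loci were nearly absent from LN elongation and read in HN elongation. XLOC_002072 had 0 and 5.07 FPKM in LN elongation against 131 and 204 FPKM in HN elongation (adjusted p = 0.0056), and XLOC_039800 (8:146600101-146600736, 636 bp) had 0 and 0.142 FPKM against 12.7 and 64.8 FPKM (adjusted p = 0.0067). XLOC_029050 (6:13181247-13182377, 1131 bp) had 2.08 and 3.59 FPKM in LN elongation against 17.1 and 16.0 FPKM in HN elongation, 5.84-fold lower (log2 change −2.22 ± 0.23, adjusted p = 0.00425). XLOC_034321 (7:4729156-4731476, 2321 bp) had 55.4 and 65.8 FPKM against 180 and 408 FPKM, 4.84-fold lower (−2.15 ± 0.39, adjusted p = 0.0135). In all 4 the LN libraries lay below both HN libraries, and the calls held in 8, 7, 8 and 6 of the 8 fits without 1 library. XLOC_034515 (7:25552637-25553219, 583 bp) had 0 and 0 against 1.69 and 11.6 FPKM (adjusted p = 0.0414), with its call kept in 1 of the 8. Among short loci, XLOC_006391 (1:137821236-137821479, 244 bp) had 0 and 0 in LN elongation against 15.7 and 9.35 FPKM, 2 and 1 steps, in HN elongation (adjusted p = 0.00206). It passed the level filter through HN elongation alone, and its zeros in every other group add no spread to the fit. XLOC_006327 (1:61246127-61246397, 271 bp) had 0 and 0 in LN elongation against 16.3 and 3.76 FPKM, 5 and 1 steps, in HN elongation (adjusted p = 0.0242). XLOC_030967 (6:35090704-35090925, 222 bp) had 15.5 and 42.1 FPKM, 1 and 2 steps, against 101 and 271 FPKM, 5 and 11 steps (−2.64 ± 0.67, adjusted p = 0.035). Of the 76 short loci called in this comparison, 22 held 10 steps or fewer in their highest group.

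In both zones 39 unannotated loci were called for nitrogen, of which 23 were lower in LN in both, 14 were higher in both and 2 changed in opposite directions. The 23 are 52.3% of the 44 called lower in the division zone and 14.6% of the 157 called lower in the elongation zone, and the 14 are 37.8% of the 37 and 5% of the 280 called higher. As shares of the class, 0.938% of the unannotated loci were lower in both and 0.571% higher in both, against 2.48% (548) and 0.598% (132) of identifier loci, a difference that was not tested. The 4 groups are separate libraries, so the 2 zones share no control. Both comparisons come from 1 fit with 1 spread per locus, however, which favours loci of low spread in both. The calls in the 2 zones are therefore not independent tests, and the labels do not say whether the zones share plants. The 23 had a median span of 1129 bp and the 14 of 1154 bp. Across the unannotated loci the changes in the 2 zones correlated with r = 0.21 (n = 2452 loci, which share the 8 libraries), and with r = 0.46 for the 1595 of 500 bp or more. For identifier loci r was 0.47 (n = 22062).

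**Figure D3:**
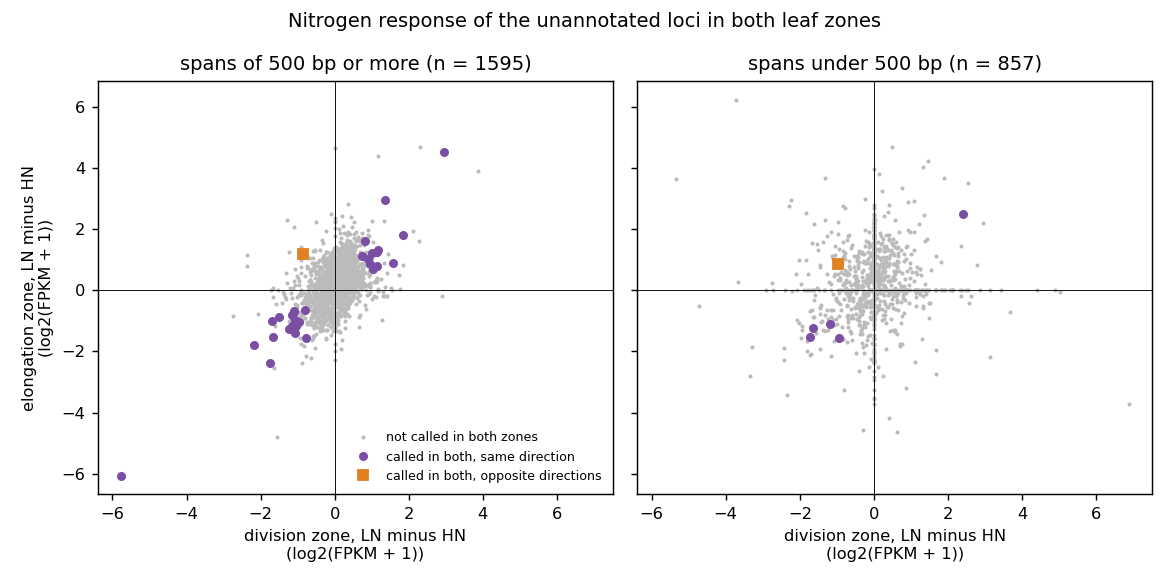
Change in LN relative to HN on the log2(FPKM + 1) scale in the division zone (horizontal axis) and the elongation zone (vertical axis), 1 point per unannotated locus, for the 1595 of 500 bp or more (left) and the shorter ones (right). Purple points are called in both zones in 1 direction and orange squares in opposite directions, and short loci lie along both axes where 1 zone reads 0 at both supplies.

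Of the loci lower in LN in both zones, XLOC_002072 had the largest changes, with its values given above: it is listed at 0 in 3 of the 4 LN libraries and at 5.07 FPKM in the other, against 44.5 to 204 FPKM in the 4 HN libraries. XLOC_010571 had 277 and 561 FPKM in LN elongation against 1553 and 1197 FPKM in HN elongation (log2 change −1.79 ± 0.35, adjusted p = 0.0177), beside the division values above. XLOC_014750 (2:221546971-221547856, 886 bp) had 4.69 and 6.84 FPKM in LN elongation against 29.7 and 38.3 FPKM in HN elongation, 5.90-fold lower, and 0.284 and 0.513 FPKM in LN division against 3.73 and 3.64 FPKM in HN division, 9.25-fold lower. Both changes of XLOC_014750 passed the test (−2.38 ± 0.21 and −1.75 ± 0.21, adjusted p = 0.00359 and 0.0133). XLOC_014665 (2:130336178-130336525, 348 bp) had 128 and 162 FPKM in LN elongation against 397 and 442 FPKM in HN elongation, and 30.8 and 20.9 FPKM in LN division against 83.3 and 89.8 FPKM in HN division (−1.53 ± 0.23 and −1.73 ± 0.23, adjusted p = 0.00813 and 0.0153). Its libraries held between 37 and 502 steps, so few steps are not the limit there. XLOC_036663 (8:82183496-82184990, 1495 bp) had 2.19 and 1.90 FPKM in LN elongation against 6.82 and 8.84 FPKM in HN elongation, and 0 and 0 in LN division against 2.82 and 1.59 FPKM in HN division (adjusted p = 0.0086 and 0.0173). XLOC_010571, XLOC_014750, XLOC_014665 and XLOC_036663 were also higher in HN elongation than in HN division, while the zone change of XLOC_002072 at HN was 1.60 ± 0.75 and did not pass (adjusted p = 0.128). The division-zone calls of the 5 loci held in 2 to 5 of the 8 fits without 1 library, and their elongation-zone calls in 6 to 8.

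Of the loci higher in LN in both zones, XLOC_030349 was read at 6.57 to 21.9 FPKM in the 4 LN libraries and is listed at 0 in all 4 HN libraries. XLOC_028784 (5:72653176-72653684, 509 bp) showed the same pattern at a lower level, with 5.85 and 7.85 FPKM in LN elongation and 1.12 and 2.09 FPKM in LN division, and is listed at 0 in all 4 HN libraries (adjusted p = 0.00273 and 0.0293). XLOC_025106 (5:83169622-83171762, 2141 bp) had 45.9 and 40.6 FPKM in LN elongation against 12.2 and 11.3 FPKM in HN elongation, 3.68-fold higher, and 4.52 and 2.93 FPKM in LN division against 0.539 and 0.101 FPKM in HN division, 11.6-fold higher. Both of its changes passed (1.79 ± 0.23 and 1.84 ± 0.23, adjusted p = 0.00619 and 0.0141), and its level also differed between zones at each supply. XLOC_040039 (9:16909906-16910968, 1063 bp) had 2.57 and 2.01 FPKM in LN elongation against 0.299 and 0.352 FPKM in HN elongation, and 3.17 and 2.08 FPKM in LN division against 0.451 and 0.740 FPKM in HN division (1.31 ± 0.21 and 1.17 ± 0.21, adjusted p = 0.0107 and 0.0337). XLOC_011195 (2:185129712-185130102, 391 bp) had 7.44 and 10.4 FPKM in LN elongation against 2.0 and 0 FPKM in HN elongation, and 4.33 and 4.19 FPKM in LN division against 0 and 0 in HN division (adjusted p = 0.0149 and 0.0391). Its LN libraries held 11 to 22 steps. Among these 5 loci the division-zone call held in all 8 fits without 1 library for XLOC_030349 and in 2 of the 8 for the other 4. For XLOC_030349 this is no added support, since its zeros in the 4 HN libraries add no spread to the fit.

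**Figure D4:**
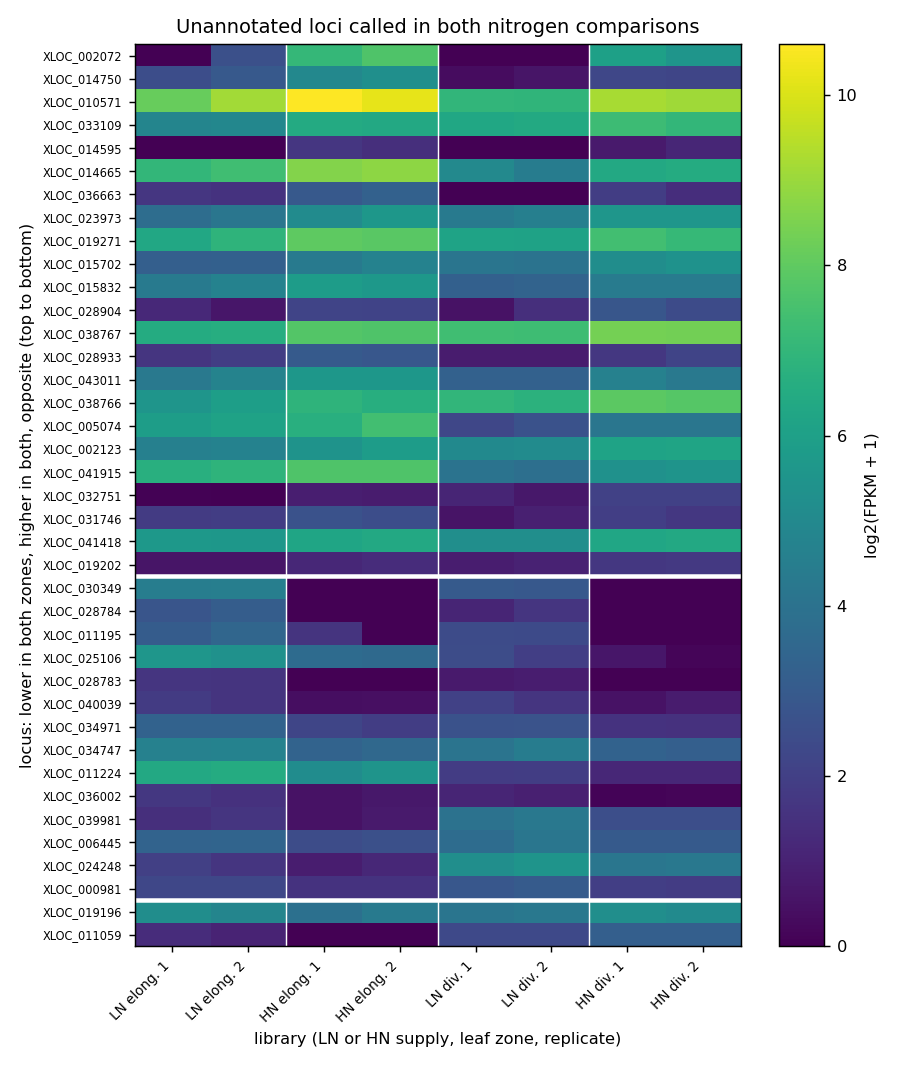
Levels on the log2(FPKM + 1) scale (colour) of the 39 unannotated loci called in both nitrogen comparisons (vertical axis, XLOC numbers) in the 8 libraries (horizontal axis). The upper 23 are darker in LN than in HN columns of the same zone, the middle 14 brighter, and the lower 2 brighter in LN elongation and darker in LN division.

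Both loci with opposite responses were lower in LN division and higher in LN elongation. XLOC_019196 (3:34976867-34977142, 276 bp) had 36.0 and 27.7 FPKM in LN elongation against 14.3 and 19.7 FPKM in HN elongation, and 16.5 and 17.9 FPKM in LN division against 37.1 and 32.7 FPKM in HN division (log2 changes 0.88 ± 0.20 and −0.98 ± 0.20, adjusted p = 0.0267 and 0.0441). Its libraries held 5 to 17 steps, and the difference between its 2 responses did not pass the threshold (adjusted p = 0.0713). XLOC_011059 (2:172087493-172088007, 515 bp) had 1.52 and 1.09 FPKM in LN elongation against 0 and 0 in HN elongation, and 4.08 and 4.12 FPKM in LN division against 8.28 and 8.32 FPKM in HN division (adjusted p = 0.00683 and 0.0347). The division-zone call held in 2 of the 8 fits without 1 library for each of them.

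The difference of the nitrogen responses, elongation minus division zone, was called for 8 unannotated loci, 4 above and 4 below 0, which is 0.326% of the 2452. Over all tested loci 0.283% were called, 0.13% above and 0.154% below 0. The share among the unannotated loci is near this background. The 8 are XLOC_006287, XLOC_006391, XLOC_014560, XLOC_032563, XLOC_011059, XLOC_030349, XLOC_033172 and XLOC_035974. XLOC_011059, XLOC_030349 and XLOC_033172 span 500 bp or more. XLOC_006287, XLOC_006391, XLOC_032563 and XLOC_033172 are read in a single group and passed the level filter through it, so their difference restates the change of that group. Of the 5 short loci, 4 rest on 10 steps or fewer in their highest group. The exception is XLOC_035974 (7:117258864-117259099, 236 bp), with 337 and 307 FPKM in LN elongation, about 41 and 25 steps, against 54.3 and 52.2 FPKM, 5 and 4 steps, in HN elongation, and 93.5 and 95.9 FPKM in LN division against 83.4 and 63.1 FPKM in HN division. Only its elongation libraries separate widely by supply. The count was 17 to 25 without 1 of the LN division libraries, 31 to 32 without 1 of the LN elongation libraries, 328 without HN elongation replicate 1, 20 without HN elongation replicate 2, and 8 to 9 without 1 of the HN division libraries.

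Zone separated more unannotated loci than supply did. At HN 331 were higher and 373 lower in the elongation than in the division zone, 28.7% of the 2452, against 41.7% of all tested loci, 22.1% higher and 19.7% lower. At LN 464 were higher and the rest of the 819 called were lower, 33.4%, against 48.6% of all tested loci, 26.2% higher and 22.4% lower. Both shares lie below the background, and the classes also differ in level. Of loci that averaged 5 FPKM or more, 34.9% of 938 unannotated loci were called at HN and 40.8% at LN, against 45.3% and 53.2% of identifier loci. At both supplies 214 unannotated loci were higher in the elongation zone, which is 64.7% of the 331 and 46.1% of the 464, and 225 were lower, which is 60.3% of the 373 and 63.4% of those lower at LN. Of identifier loci, 4100 were higher at both supplies, which is 80.3% of those higher at HN and 68.7% at LN, and 3382 were lower, which is 75.8% and 65.5%. As shares of the class, 8.73% of unannotated loci were higher and 9.18% lower at both, against 18.6% and 15.3% of identifier loci, and the difference was not tested. Against the direction at HN went 1 locus that was lower at LN and 5 that were higher at LN. With equal FPKM totals the balance at HN became 242 higher and 420 lower. Over all tested loci rises made up 52.9% of the calls at HN as deposited and 40.95% with equal totals. Without 1 of the HN division libraries the HN count was 394 (replicate 1) or 418 (replicate 2).

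Some unannotated loci were nearly absent from 1 zone. XLOC_000189 (1:10434381-10435207, 827 bp) had 74.4 and 94.1 FPKM in LN elongation against 0.157 and 0.0811 FPKM in LN division, 708-fold higher, and 86.1 and 108 FPKM in HN elongation against 2.46 and 2.6 FPKM in HN division, 38.4-fold higher (log2 changes 6.24 ± 0.18 and 4.79 ± 0.18, adjusted p = 1.23e-05 and 6.05e-05). XLOC_040584 (9:90458849-90460057, 1209 bp) had 48.0 and 57.1 FPKM in LN elongation against 0.112 and 0.175 FPKM in LN division, and 34.6 FPKM in both HN elongation libraries against 0.702 and 0.385 FPKM in HN division (5.54 ± 0.17 and 4.54 ± 0.17, adjusted p = 1.23e-05 and 6.05e-05). XLOC_011224 (2:187277372-187278694, 1323 bp) had 83.3 and 89.9 FPKM in LN elongation against 2.73 and 2.82 FPKM in LN division, and 35.1 and 44.2 FPKM in HN elongation against 1.25 and 1.26 FPKM in HN division (4.54 ± 0.15 and 4.16 ± 0.15, adjusted p = 1.34e-05 and 6.05e-05). In these 3 loci all 4 elongation libraries lay above all 4 division libraries. The folds of XLOC_000189 at LN and of XLOC_040584 rest on division values under 1 FPKM whose replicates lay apart. In limma XLOC_000189 was also lower in LN than in HN division (log2 change −1.66 ± 0.18, adjusted p = 0.00824). XLOC_011224 was also higher in LN than in HN in both zones. XLOC_018487 (3:188429594-188431622, 2029 bp) spread more within the elongation zone, with 165 and 317 FPKM in LN elongation against 0 and 10.1 FPKM in LN division, and 230 and 112 FPKM in HN elongation against 0 and 0 in HN division (adjusted p = 0.00287 and 0.00172). XLOC_033076 (7:53707541-53710088, 2548 bp) had 73.1 and 28.5 FPKM in LN elongation and 0.300 and 62.5 FPKM in HN elongation, and is listed at 0 in all 4 division libraries. Its change passed at LN alone (adjusted p = 0.0239), and its HN elongation replicates lie far apart. Among short loci, XLOC_019263 (3:102709644-102709852, 209 bp) had 56.3 and 106 FPKM in LN elongation and 73.7 and 225 FPKM in HN elongation, 2 to 5 steps each, and is listed at 0 in all 4 division libraries. XLOC_006404 (1:144757869-144758098, 230 bp) had 75.1 and 92.8 FPKM in LN elongation, about 7 and 6 steps, against 0 and 0 in LN division (adjusted p = 0.00471). XLOC_035917 (7:62290489-62290727, 239 bp) had 38.4 and 45.9 FPKM in HN elongation, about 4 steps each, against 0 and 0 in HN division (adjusted p = 0.00319).

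Other unannotated loci were highest in the division zone. XLOC_024248 had 2.97 and 2.14 FPKM in LN elongation against the LN division values given above, 15.6-fold lower, and 0.821 and 1.27 FPKM in HN elongation against the HN division values, 16.7-fold lower (log2 changes −3.53 ± 0.19 and −3.18 ± 0.19, adjusted p = 3.58e-05 and 9.41e-05). XLOC_007355 (10:109506638-109508304, 1667 bp) had 20.6 and 5.58 FPKM in LN elongation against 226 and 170 FPKM in LN division, and 22.3 and 16.7 FPKM in HN elongation against 154 and 178 FPKM in HN division (−4.04 ± 0.51 and −3.04 ± 0.51, adjusted p = 0.000841 and 0.00369). XLOC_036687 (8:85383770-85385215, 1446 bp) had 2.6 and 2.46 FPKM in LN elongation against 45.2 and 39.3 FPKM in LN division, and 8.15 and 12 FPKM in HN elongation against 36.5 and 36.9 FPKM in HN division (−3.61 ± 0.19 and −1.79 ± 0.19, adjusted p = 3.24e-05 and 0.000583). In each of these 3 loci all 4 elongation libraries lay below all 4 division libraries. XLOC_029777 (6:107490564-107492588, 2025 bp) had 11.6 and 7.73 FPKM in LN elongation against 80.8 and 134 FPKM in LN division (−3.33 ± 0.40, adjusted p = 0.000737). XLOC_013846 (2:196289545-196290137, 593 bp) had 0 and 0 in HN elongation against 4.62 and 7.67 FPKM in HN division (adjusted p = 0.0411), a call kept in 2 of the 8 fits without 1 library. XLOC_029938 (6:121740744-121741175, 432 bp) had 15.2 and 0 FPKM in LN elongation against 334 and 155 FPKM in LN division (adjusted p = 0.0328). XLOC_009457 (10:58992026-58992238, 213 bp) and XLOC_028848 (5:133880201-133880429, 229 bp) are listed at 0 in all 4 elongation libraries and held 1 to 7 steps in each division library. XLOC_035771 (7:173208562-173208849, 288 bp) is listed at 0 in both HN elongation libraries and had 148 and 75.9 FPKM in HN division, about 70 and 44 steps (adjusted p = 0.0235). At LN it had 0 and 91.5 FPKM in elongation against 180 and 83.6 FPKM in division, where the groups overlap (adjusted p = 0.136), and its call at HN held in 4 of the 8 fits without 1 library.

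The unannotated loci lie between the identifier loci of the table, and none overlaps one. The nearest identifier locus was within 1 kb of 505 of them (20.6%), at 1 to 5 kb for 537, at 5 to 20 kb for 604 and beyond 20 kb for 806 (32.9%), with a median of 8137 bp and a largest distance of 637415 bp. Where the nearest identifier locus was itself tested, the correlation of the changes of the pair across loci varied with distance. Within 1 kb (n = 348 pairs, which share the 8 libraries), r was 0.26 for LN against HN in division, 0.35 for LN against HN in elongation, 0.35 for zone at HN and 0.39 for zone at LN. At 1 to 5 kb, with a similar number of pairs, it was 0.11, 0.04, 0.11 and 0.19, at 5 to 20 kb (n = 321) 0.23, 0.01, −0.01 and 0.00, and beyond 20 kb (n = 442) 0.04, 0.01, 0.06 and 0.03. The value within 1 kb was the highest in each comparison, but for LN against HN in division the value at 5 to 20 kb lay close to it. Where both loci of a pair within 1 kb were called, 14 of 16 changed in the same direction in LN against HN elongation, 46 of 58 between zones at HN and 53 of 69 between zones at LN. Beyond 20 kb the same counts were 15 of 24, 33 of 56 and 47 of 71. The table has no strand, so a transcript that runs on from its neighbour and a separate transcript cannot be told apart.

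Neighbours of the named loci show both kinds of pair. XLOC_007355 lies 1200 bp from GRMZM2G130351, whose level was 1.77 and 0.784 FPKM in LN elongation against 17.4 and 20.4 FPKM in LN division, a zone change at LN of −3.16 ± 0.23 (adjusted p = 8.93e-05), beside −4.04 for the unannotated locus. XLOC_036687 lies 3 bp from GRMZM2G439306, which is listed at 0 in all libraries but 1 HN division library, at 0.0212 FPKM. XLOC_032578 lies 152 bp from AC206788.3_FG008, which had 26.7 and 16.3 FPKM in LN division against 60.6 and 52.2 FPKM in HN division (log2 change −1.39 ± 0.32, adjusted p = 0.0578), beside −1.58 for the unannotated locus. XLOC_006287 lies 9870 bp from GRMZM2G040762, named dcl1 in the RefSeq gene table, which had 9.85 and 5.65 FPKM in LN division against 5.97 and 8.19 FPKM in HN division. The groups of that neighbour overlap, while XLOC_006287 was read in LN division alone.

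**Figure D5:**
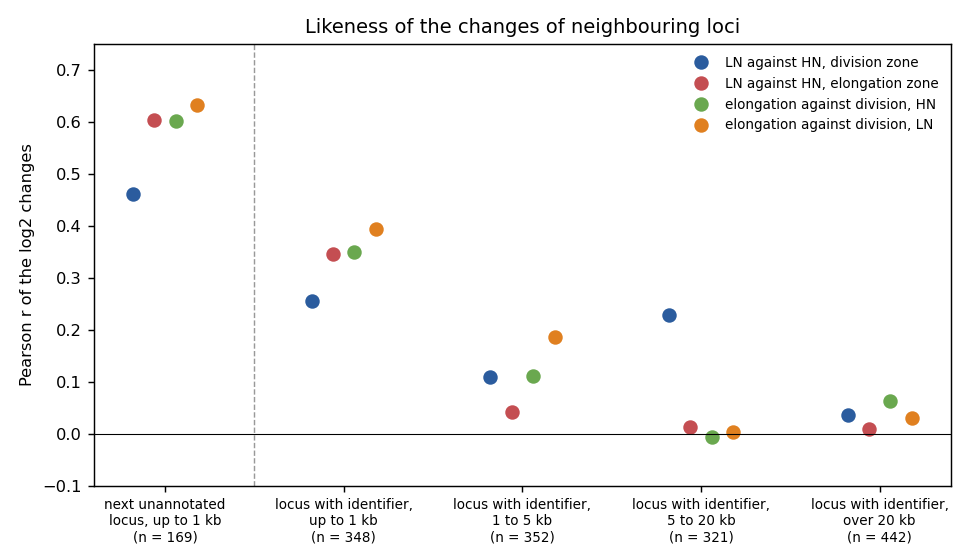
Pearson correlation of the log2 changes of 2 neighbouring loci (vertical axis) by kind and distance of the neighbour (horizontal axis, with the number of pairs), 1 point per comparison. Pairs of unannotated loci up to 1 kb apart reach 0.46 to 0.63, pairs with an identifier locus up to 1 kb away 0.26 to 0.39, and pairs over 20 kb apart 0.01 to 0.06.

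Unannotated loci also neighbour each other. With gaps of up to 1 kb joined, a rule set after the values were seen, 2138 stood alone, 126 pairs and 16 triplets formed, and 3 runs held 4 or 5 loci. The 169 adjacent pairs had a median gap of 185 bp and a shortest of 51 bp, with 40 gaps of 100 bp or less. Their changes correlated with r = 0.46 for LN against HN in division, 0.60 in elongation, 0.60 for zone at HN and 0.63 for zone at LN. Where both of a pair were called, 22 of 22 agreed in direction in LN against HN elongation, 28 of 29 between zones at HN and 43 of 43 between zones at LN. Adjacent loci of a run may be pieces of 1 transcript, so they are not independent of each other.

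The run at 7:117257039-117260561 holds 5 unannotated loci within 3523 bp, with gaps of 96 to 98 bp, and all 5 were higher in LN than in HN elongation. XLOC_034970 (291 bp) had 89.3 and 111 FPKM in LN elongation, 60 and 53 steps, against 14.0 and 11.4 FPKM in HN elongation, 7 and 5 steps, 7.86-fold higher (log2 change 2.88 ± 0.21, adjusted p = 0.00207). XLOC_035974, with values given above, was 6.05-fold higher (2.57 ± 0.18, adjusted p = 0.00206). XLOC_033370 (1727 bp) had 12.9 and 8.52 FPKM against 3.72 and 0.849 FPKM (1.96 ± 0.42, adjusted p = 0.0219). In these 3 loci the LN libraries lay above the HN libraries. XLOC_035975 (210 bp) had 431 and 612 FPKM, about 16 and 18 steps, against 141 and 129 FPKM, about 4 and 3 steps (1.92 ± 0.31, adjusted p = 0.0106), and XLOC_034971 (671 bp) had 8.97 and 9.16 FPKM against 3.65 and 2.85 FPKM (1.25 ± 0.15, adjusted p = 0.00548). In the division zone XLOC_034971 alone was called, with 5.37 and 5.53 FPKM in LN against 1.93 and 1.88 FPKM in HN (1.15 ± 0.15, adjusted p = 0.0154). The nearest identifier locus of the run, GRMZM2G160364, lies 8346 bp or more away, with changes of 0.30 in elongation and 0.37 in division. In LN elongation the levels of these adjoining loci ran between 8.52 and 612 FPKM, with the highest at the shortest spans.

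The run at 5:210042888-210048229 holds 5 loci in 5342 bp between the table's locus PSBZ, a symbol that denotes a photosystem II subunit gene of the plastid genome, and GRMZM2G055151. Its fitted changes in LN elongation lay between −2.50 and −0.58, and XLOC_028933 (2307 bp) alone was called. XLOC_028933 had 2.12 and 2.79 FPKM in LN elongation against 6.96 and 6.36 FPKM in HN elongation, and 0.744 and 0.775 FPKM in LN division against 2.33 and 3.57 FPKM in HN division (−1.15 ± 0.20 in each zone, adjusted p = 0.0129 and 0.0318). The PSBZ locus had 1.18 and 1.57 FPKM in LN elongation against 3.0 and 8.95 FPKM in HN elongation (−1.42 ± 0.39, adjusted p = 0.0442), and GRMZM2G055151 had 3.70 and 7.13 FPKM against 12.4 and 22.1 FPKM (−1.51 ± 0.38, adjusted p = 0.0345). The unannotated locus and the genes on both flanks were thus all lower in LN elongation. Of the others in the run, XLOC_028930 (419 bp) had 0.945 and 2.63 FPKM against 4.18 and 12.5 FPKM, XLOC_028932 (659 bp) had 2.73 and 3.46 FPKM against 4.23 and 6.61 FPKM, and XLOC_028934 (727 bp) had 0.806 and 0.674 FPKM against 1.99 and 1.25 FPKM. XLOC_028931 (230 bp) held 0 to 2 steps in each library.

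The run at 4:221373371-221376469 holds 4 loci in 3099 bp with gaps of 97 to 103 bp. XLOC_024038 (312 bp) had 21.9 and 26.8 FPKM in LN elongation, 22 and 20 steps, against 12 and 3.02 FPKM in HN elongation, 9 and 2 steps (1.80 ± 0.51, adjusted p = 0.0473), and XLOC_021291 (321 bp) had 12 and 20.5 FPKM, 14 and 18 steps, against 4.59 and 3.90 FPKM, 4 and 3 steps (1.68 ± 0.43, adjusted p = 0.0364). The 2 loci between them, XLOC_021289 (1555 bp) and XLOC_021290 (614 bp), had changes of 0.32 and 0.88 that did not pass the threshold. XLOC_021289 had 25.6 and 30.3 FPKM in LN elongation and 27.0 and 18.1 FPKM in HN elongation, so its groups overlap. XLOC_021290 had 119 and 124 FPKM against 88.8 and 48.1 FPKM, with the groups apart.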

How the data were processed

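The 8 libraries were RNA sequencing of leaf 6 of maize B73, 2 per group of nitrogen supply and leaf zone. The authors' deposited table gives 1 value per assembled locus and library, read here as FPKM. That unit was judged from the values, since neither header nor labels state it. The numbers carry decimals, columns sum to unequal totals, and among short loci the smallest step falls with span. TopHat2, edgeR and the build B73 RefGen_v3 are named, without versions or roles, per the submitters' processing notes. The assembler of the loci and the absolute depth are not given either, so no interval for counting error could be had. The precision of a value is limited by 2 libraries per group, a value of 0 may be a missed locus, and short loci move in large steps.

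The table's 44070 lines describe 43110 loci, kept once each. Starts count from 0 in the table and were raised by 1. No genome sequence of this build was used, so no locus sequence is shown. Names of neighbours come from the table, or through identifiers listed by RefSeq for Zm-B73-REFERENCE-NAM-5.0, which matched 18822 loci. Coordinates of that assembly were not used.

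Loci with a group mean of at least 1 FPKM (24706) were fitted on the log2(FPKM + 1) scale, which understates changes of low loci, using limma with its mean-variance trend. The model had 4 group means, 4 residual degrees of freedom and 2.84 prior degrees of freedom. Adjustment (Benjamini-Hochberg) ran over all fitted loci, and calls needed an adjusted p under 0.05. A locus at 0 in any library of a group gets no fold. Each group has a replicate 1 and a replicate 2 by title, with nothing on shared plants, and deviations of same-numbered libraries correlated at −0.19 to 0.33, so no block was used. Data were simulated for LN against HN in the division zone (5 simulations, 24706 loci, 200 of them changed in each). Of 2-fold changes (log2 change 1) 21.1% were recovered and of 4-fold changes (log2 change 2) 72.6%, with 6.79% false calls.

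Members, lists, tests and naming rule were chosen with earlier results of these data known. Named were loci whose groups were apart and whose higher group averaged 5 FPKM or more: per direction, the top 6 calls by size in nitrogen comparisons and the top 4 elsewhere (the groups need not be apart for the difference of responses). Also named were the 8 highest levels, 3 longest spans, 3 loci on each side of the threshold, up to 5 called alike in both zones per direction, and those called in opposite directions. The same rule among spans of at least 500 bp, and loci of runs of 4 or more, were added after the values were seen. Alternatives were a pseudocount of 0.1, other filters, 2 scalings, a replicate block, fits of 2 groups, and each library left out. The versions were limma 3.58.1 under R 4.3.3, then numpy 2.4.6, matplotlib 3.10.9 and pandas 2.3.3 under Python 3.11.15.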

Additional observations from a re-analysis of the deposited data

Results flagged for a closer look

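For 8 unannotated loci limma's test called the difference between the nitrogen response in the elongation and in the division zone. The difference, elongation minus division, is given on the log2(FPKM + 1) scale, and where a group is listed at 0 it is no fold. Above 0 were XLOC_033172 (4.667, adjusted p = 0.00352), XLOC_035974 (2.194, adjusted p = 0.0376), XLOC_011059 (2.066, adjusted p = 0.0376) and XLOC_030349 (1.559, adjusted p = 0.0473). Below 0 were XLOC_006287 (−4.889, adjusted p = 0.0018), XLOC_032563 (−4.412, adjusted p = 0.0217), XLOC_014560 (−4.361, adjusted p = 0.0376) and XLOC_006391 (−3.719, adjusted p = 0.0243). XLOC_006287, XLOC_006391, XLOC_032563 and XLOC_033172 are read in 1 group alone, so this value restates the change of that group. XLOC_030349 is listed at 0 in all 4 HN libraries, so its value equals its zone change at LN, and its call was lost with a pseudocount of 0.1, with median ratio scaling, with a filter on the mean over all libraries and with the replicate block. All 4 below 0 span 220 to 244 bp and hold 2 steps or fewer in each library. The call held in all 8 fits that left out 1 library for XLOC_006287 and XLOC_033172, and in 1 to 4 of the 8 for the other 6. For XLOC_006287 and XLOC_033172 this is no added support, since their zeros in every other group add no spread to the fit.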

How the results depend on the processing

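With 2 libraries per group the counts of unannotated loci called depend on the libraries and loci fitted. Shares over all tested loci are not given for the fits without 1 library, so those counts cannot be read as particular to the unannotated loci. The fit of the 2 elongation groups alone called none of all tested loci. For LN against HN in the division zone the count was 81, and 40 when loci of any level were fitted, 42 with these 2 groups alone, 38 with a replicate block, and 10 to 206 with each library left out. In the elongation zone it was 437, and 163 without a filter, 0 in limma with these 2 groups alone (660 at unadjusted p under 0.05), and 79 to 860 with each library left out. For elongation against division zone at HN it was 704, and 467 without a filter, 436 with these 2 groups alone, and 394 to 919 with each library left out. For the difference of responses it was 8, and 15 without a filter, 19 with equal FPKM totals, 2 with the replicate block, 3 for spans of 500 bp or more, and 8 to 328 with each library left out. The labels do not say that replicate numbers mark shared plants, so the block is no paired design. At LN the zone count stayed within 1.5 times of 819 in every setting run, between 558 and 1007 with each library left out. Of the 98 named calls 32 held in every setting that kept all libraries and 37 in every fit without 1 library. None reversed in any setting. The naming rule asked for called changes, with groups apart in nitrogen and zone comparisons. The lack of reversals was thus largely fixed by that choice and is no sign of stability. A stricter choice of loci, at 5 FPKM, would leave 1244 of the 2452. The cause of these shifts was not tested. Depth is unknown, so a change absent from the calls may have been missed.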
